A study of Mus musculus with 412 samples.

Results

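Endocannabinoid signalling was described here in single mouse sensory neurons that innervate the colon, through 8 genes that encode cannabinoid receptors and the enzymes that make and break down their lipid ligands. The genes were Cnr1, Cnr2, Gpr55, Napepld, Dagla, Daglb, Faah and Mgll. They were chosen by symbol and found by Ensembl identifier, and all 8 were present among the 45513 genes of the deposited table.

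Colonic neurons had been labelled by injecting the retrograde tracer Fast Blue into the colon wall of healthy C57BL/6J mice, and the dorsal root ganglia (DRG) were taken 3 to 10 days later. The ganglia were dissociated into a thoracolumbar (TL, T10-L1) and a lumbosacral (LS, L5-S2) culture, and labelled neurons were picked by hand and sequenced singly by Smart-seq2, which reads full-length cDNA of polyadenylated RNA. Of 399 labelled neurons in 6 library plates, 325 were in the table, of which 167 were TL and 158 LS. A further 74 neurons, and 13 samples of bath solution, were not analysed here. No group had been given a treatment, and no source used here names the age of the mice or ties a neuron to a mouse. TL and LS were therefore each treated as 1 sample, no p-value was computed, and the spread between the 5 plates that held both segments stood in for an error. Plate 1 held 5 TL neurons and no LS neurons.

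Levels are given as TPM, meaning values taken off the log scale and rescaled to 1000000 in each neuron. TPM are corrected for gene length, so levels of different genes can be set side by side. That length covers the exons of a gene together, not the transcripts present in a neuron, so the order of genes depends on it. Neurons were also divided by Gfra3, the co-receptor for artemin and a marker of peptidergic nociceptors, and by Piezo2, a mechanically gated channel. A neuron with at least 10 TPM of Gfra3 and less of Piezo2 was placed in the Gfra3 class, and the converse in the Piezo2 class. The Gfra3 class held 82 TL and 76 LS neurons and the Piezo2 class 55 TL and 65 LS neurons, while 25 neurons had both genes and 22 had neither. The neurons nearest the threshold had 9.63 and 10.98 TPM of Gfra3, and 9.99 and 10.9 TPM of Piezo2, and 27 neurons lay between 5 and 20 TPM of Piezo2 against 6 for Gfra3.

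The table came from 416007 to 12058968 reads per neuron, and the median neuron had 2709639 in TL and 3202776 in LS. All 11 sensory neuron markers examined averaged at least 10 TPM in both segments. Markers of satellite glia and Schwann cells were present as well and were higher in TL, where their summed level ranged from 5.61 to 100546 TPM with a median of 2030, against 6.83 to 60450 with a median of 224 TPM in LS. Of the 10 glial genes, 9 averaged at least 10 TPM in TL and 7 in LS, and Sox10, Cdh19 and Kcnj10 had a median of 0 in LS. An endothelial sum of at least 1000 TPM was seen in 1 neuron, a TL neuron of the Piezo2 class. The 22 neurons with neither class gene had a median of 9459 genes above 0, against 13658 over all neurons.

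Endocannabinoids are lipids that neurons make on demand. Diacylglycerol lipases alpha and beta, encoded by Dagla and Daglb, release 2-arachidonoylglycerol from diacylglycerol, and monoacylglycerol lipase, encoded by Mgll, hydrolyses it. The phospholipase encoded by Napepld makes anandamide and related N-acylethanolamines, which the fatty acid amide hydrolase encoded by Faah breaks down. Their main neuronal receptor, cannabinoid receptor 1 (Cnr1), couples to inhibitory G proteins and lowers transmitter release from nerve terminals, including those of primary afferents. Cannabinoid receptor 2 (Cnr2) is best known from immune cells, and Gpr55 is a receptor for lysophosphatidylinositol that also responds to some cannabinoids.

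In the GRCm38 genome, by the GENCODE M21 annotation, Cnr1 lies at chr4:33924593-33948831 on the plus strand, Cnr2 at chr4:135895394-135920207 on the plus strand and Gpr55 at chr1:85938318-85961007 on the minus strand. Of the synthetic enzymes, Napepld lies at chr5:21662901-21701396 (minus), Dagla at chr19:10245265-10304877 (minus) and Daglb at chr5:143464584-143505942 (plus). Faah lies at chr4:115967145-116017926 (minus) and Mgll at chr6:88724412-88828360 (plus). All 8 are protein-coding, and reads over their exons, untranslated regions included, were counted. Daglb is the least certain, because 2309 of its 9567 exonic bases (24.1%) are shared with exons of Rac1, a small GTPase gene on the opposite strand that averaged 167 TPM. Mgll shared 167 exonic bases with the antisense gene Gm26588, and Gpr55 shared 71 with 4933407L21Rik, both of which averaged under 1 TPM. Whether counting used the strand is not given in the sources used here, so reads in these overlaps cannot be assigned with certainty.

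Colonic neurons carried chiefly Cnr1 and Mgll, followed by the diacylglycerol lipase genes. Over all 325 neurons the median level was 30.7 TPM for Cnr1 and 28.6 TPM for Mgll, then 9.92 TPM for Dagla, 7.69 for Daglb, 1.35 for Napepld and 0.226 for Faah, while Gpr55 and Cnr2 had medians of 0. Cnr1 and Mgll could not be ordered. Cnr1 was the higher in 163 neurons and Mgll in 153, and the order of the medians held in 3 of 6 plates. The step from Mgll down to Dagla and that from Daglb down to Napepld held in all 6 plates, and those from Dagla to Daglb and from Napepld to Faah in 5. The steps held in 5 plates depended on the measure. In reads, not corrected for length, Dagla had a median of 64 and Daglb of 82, with sums of 42481 and 33210. Napepld had a median of 6 reads and Faah of 2, with sums of 5603 and 9231. At 10 TPM or more, Mgll was found in 248 neurons (76.3%, exact 95% interval 71.3 to 80.8), Cnr1 in 233 (71.7%, 66.5 to 76.5), Dagla in 159 (48.9%, 43.4 to 54.5), Daglb in 93 (28.6%, 23.8 to 33.9), Faah in 33 (10.2%, 7.09 to 14.0) and Napepld in 26 (8.0%, 5.29 to 11.5). The intervals of these shares cover counting error only.

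**Figure D1:**
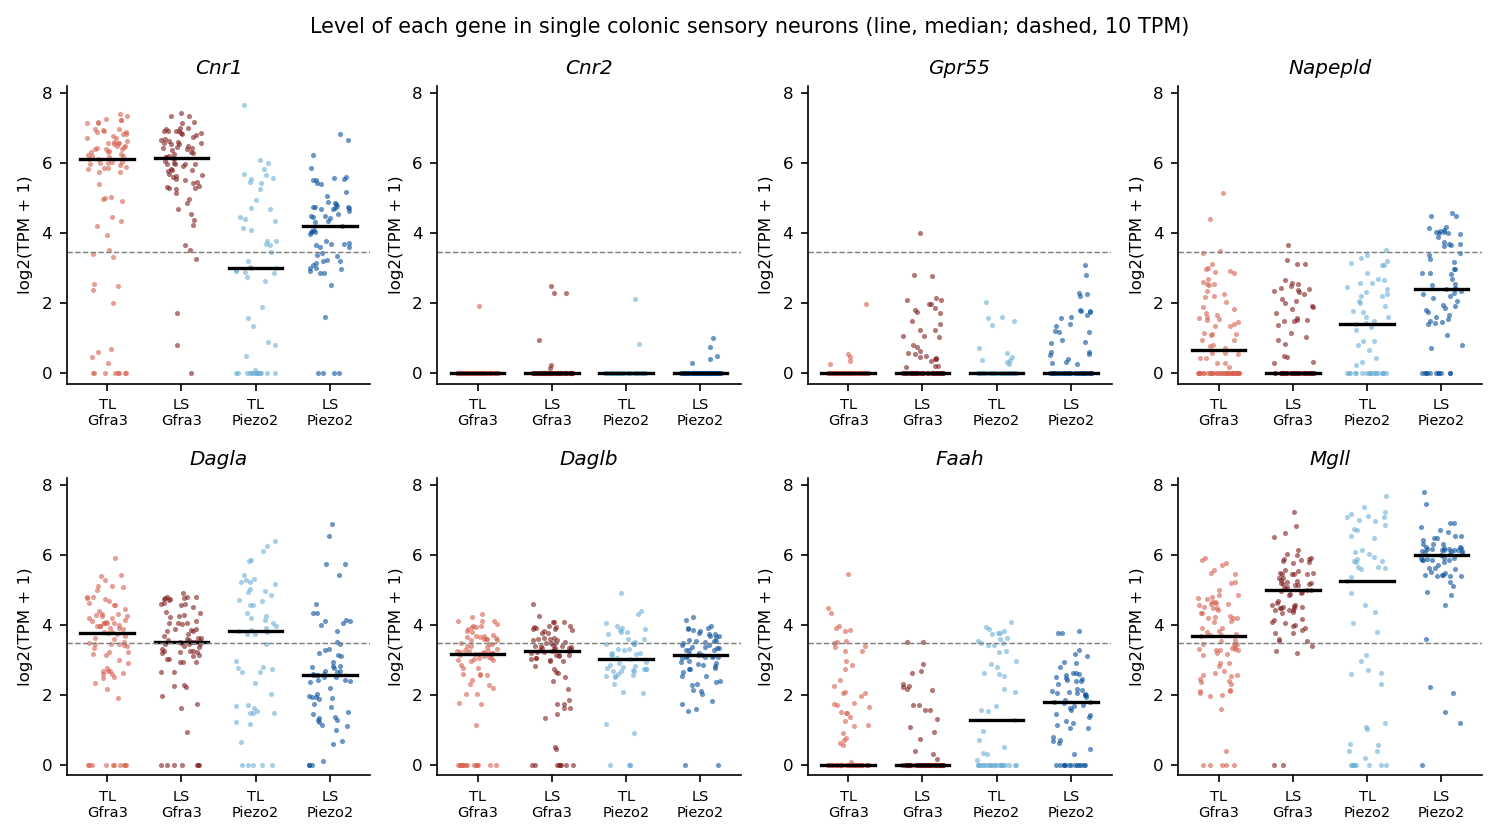
Level of each of the 8 genes in every neuron of the Gfra3 and Piezo2 classes, as log2(TPM + 1) on the y axis, with 1 point per neuron, TL and LS side by side on the x axis, a black line at the median and a dashed line at 10 TPM. Cnr1 is high across the Gfra3 class (medians of 68.3 TPM in TL and 69.3 in LS), Mgll is higher in LS, nearly all points of Cnr2 lie at 0, and Gpr55 is above 0 in 33 of 76 and 28 of 65 LS neurons but only 5 of 82 and 12 of 55 TL neurons (Gfra3 and Piezo2 class).

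Cnr1 was higher in the Gfra3 than in the Piezo2 class in both segments. In TL neurons of the Gfra3 class it ranged from 0 to 169 TPM with a median of 68.3, and in LS neurons from 0 to 172 TPM with a median of 69.3. In the Piezo2 class it ranged from 0 to 203 TPM with a median of 6.93 in TL, and from 0 to 113 TPM with a median of 17.4 in LS. The ranges thus overlapped, since some neurons of each class were at 0, and 1 Piezo2 neuron, the TL neuron at 203 TPM, was above every Gfra3 neuron. The mean level was 68.7 TPM in the Gfra3 class against 20.7 TPM in the Piezo2 class, or 3.32-fold higher. That ratio was above 1 in each of 5 plates, with log2 ratios between 1.55 and 2.02 (SD 0.20). It was 3.57-fold in TL (65.5 against 18.4 TPM) and 3.19-fold in LS (72.2 against 22.6 TPM).

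Between segments, the mean level of Cnr1 was close, at 46.5 TPM in LS and 43.3 TPM in TL, with LS the higher in 2 of 5 plates, but a larger share of LS neurons had it. It reached 10 TPM in 79.7% of LS neurons (72.6 to 85.7) and in 64.1% of TL neurons (56.3 to 71.3). The share was the higher in LS in both classes, at 94.7% (87.1 to 98.5) against 78.0% (67.5 to 86.4) in the Gfra3 class and 69.2% (56.6 to 80.1) against 43.6% (30.3 to 57.7) in the Piezo2 class. When each neuron of at least 500000 reads was thinned to 500000 and 5 reads were required, Cnr1 was found in 90.3% of LS and 74.1% of TL neurons. In TL neurons of the Gfra3 class Cnr1 had a rho of -0.34 with the glial sum, whose median there was 2319 TPM against 163 TPM in LS. Without the tenth of neurons with most glial markers, the log2 ratio of mean Cnr1 for LS over TL within this class went from 0.14 to 0.0059, and the part of glial RNA in the difference in shares was not tested. The lower quartile of the Gfra3 class was 17.8 TPM in TL and 42.9 TPM in LS, so that the segments differed mainly among the neurons with less Cnr1. The 25 neurons with both class genes had a median of 32.3 TPM of Cnr1 and the 22 with neither a median of 0.390 TPM.

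The summed level of 10 markers of macrophages and other immune cells, called the macrophage sum, moved with Cnr1. Its Spearman rho with Cnr1 was 0.52 over 325 neurons that share library and depth. Of the 10 markers only C1qb averaged at least 10 TPM and had a median above 0. It made up a median of 78.6% of the sum and had a rho of 0.62 with Cnr1 over all neurons. Within groups that rho was 0.49 in TL and 0.25 in LS neurons of the Gfra3 class, and 0.07 in TL and 0.44 in LS neurons of the Piezo2 class, so the pooled value includes the difference between classes. Ptprc, Csf1r, Aif1 and Cx3cr1 had medians of 0 in each segment, where the sum ranged from 0 to 161 TPM (median 23.4) in TL and from 0 to 299 TPM (median 48.2) in LS. In LS neurons of the Piezo2 class, however, Csf1r had a median above 0. Without the tenth of neurons with the highest macrophage sum, the log2 ratio of Cnr1 between classes was 1.72, against 1.73 with them.

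Cnr2 was at the limit of detection. It had 135 reads over all 325 neurons, in 15 neurons, and 39 of those reads came from 1 neuron. No neuron reached 10 TPM, and by the limit of 3 counts that a count of 0 allows, 0 of 325 leaves room for a share of up to 0.923%. The highest level was 4.57 TPM. Neurons with any Cnr2 read numbered 4 of 167 in TL and 11 of 158 in LS, and their median macrophage sum was 45.0 TPM against 35.7 in the others. That sum was itself higher in LS (median 48.2 TPM) than in TL (23.4 TPM). Within the 4 groups of segment and class its rho with Cnr2 lay between -0.04 and 0.01. The level that free RNA alone would give was not measured, since the bath controls were not analysed here.

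Gpr55 was low as well but was found mostly in LS neurons. At least 1 read was seen in 63 of 158 LS neurons (39.9%, 32.2 to 48.0) and in 17 of 167 TL neurons (10.2%, 6.04 to 15.8). The LS share was alike in the Gfra3 class (33 of 76) and the Piezo2 class (28 of 65), whereas in TL it was 5 of 82 and 12 of 55. The mean was 0.766 TPM in LS and 0.102 TPM in TL, a ratio of 7.48-fold that was above 1 in each of 5 plates, with log2 ratios of 1.77 to 3.44. As a difference of mean log2(TPM + 1) it was 0.42, since most neurons were at 0. Levels were nevertheless small, since a single LS neuron reached 10 TPM, at 15.1 TPM, and after thinning to 500000 reads 7 of 155 LS neurons and 0 of 166 TL neurons had 5 reads. Both means were under 1 TPM, so Gpr55 was not counted among the genes called between groups.

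**Figure D2:**
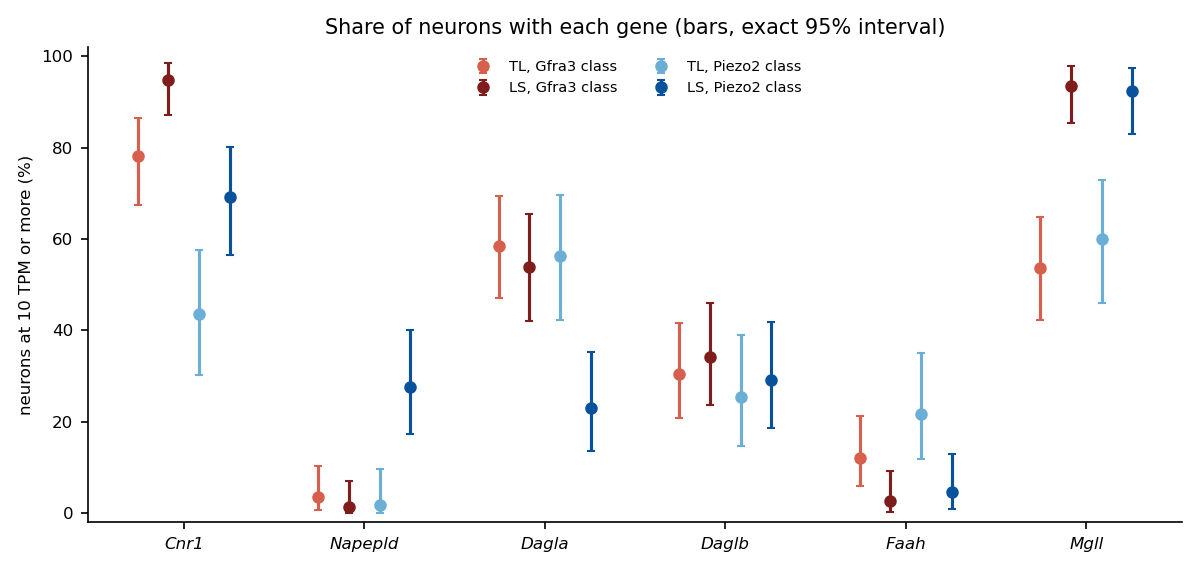
Share of neurons at 10 TPM or more, in percent on the y axis, for the 6 genes that averaged at least 1 TPM, by segment and class, with exact 95% intervals as bars. Mgll stands at 93.4% and 92.3% in the LS classes and at 53.7% and 60.0% in the TL classes, Dagla is lowest in LS neurons of the Piezo2 class (23.1%), and Napepld is highest there (27.7%).

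A ratio of means was called where it reached 2-fold and the mean was at least 1 TPM in 1 of the groups, which 6 of the 8 genes met in every comparison. Between the Gfra3 and Piezo2 classes, 1 of these 6 was higher in the Gfra3 class (Cnr1) and 2 were lower (Napepld and Mgll), where 8.44% of 16336 genes were called higher, 9.54% lower and 18% either way. Between LS and TL over all neurons 0 of 6 were called, where 6.9% of 16184 genes were higher in LS, 6.93% lower and 13.8% either way. Within the Gfra3 class 1 of 6 was higher (Mgll) and 1 lower in LS (Faah), against 8.33% and 7.96% of all genes, or 16.3% together. Within the Piezo2 class 1 of 6 was higher in LS (Napepld) and 0 were lower, against 11.2% and 9.14%, or 20.4% together. Between the classes within TL, Cnr1 was higher and Mgll lower in the Gfra3 class (12.6% and 11.2% of all genes, 23.9% together), and within LS Cnr1 was higher and Napepld and Faah lower (9.37% and 10.2%, 19.6% together). With 6 genes a single gene is 16.7%, so these shares carry no statement on the genes as a group. The ratios below are given as single values with their spread over plates.

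Of the synthetic enzymes, Napepld had its highest mean and median, among the 4 groups of segment and class, in LS neurons of the Piezo2 class. There it ranged from 0 to 22.7 TPM with a median of 4.25, and 18 of 65 neurons reached 10 TPM (27.7%, 17.3 to 40.2). In the other 3 groups it had a median of 1.63 TPM (TL, Piezo2 class, 0 to 10.4), 0.570 TPM (TL, Gfra3 class, 0 to 34.7) and 0 (LS, Gfra3 class, 0 to 11.7). Those groups overlapped with it from 0 upwards, but held few neurons at 10 TPM, with 1 of 55, 3 of 82 and 1 of 76. The 25 neurons with both class genes came nearer, with a mean of 4.97 TPM, a median of 2.97 TPM and 3 at 10 TPM. In the 18 TL neurons among them the median was 3.58 TPM (0 to 39.8), and 2 reached 10 TPM. Within the Piezo2 class the mean was 6.54 TPM in LS and 2.54 TPM in TL, a 2.58-fold difference with log2 ratios between 1.02 and 2.63 in 5 plates. As a difference of mean log2 values it was 0.98, just under 2-fold. Each of plates 2 to 6 had LS neurons of this class at 10 TPM, 1 of 9 in plate 2 and between 27.3% and 33.3% in plates 3 to 6. Within LS, the mean was 4.30-fold higher in the Piezo2 than in the Gfra3 class (6.54 against 1.52 TPM), in 5 of 5 plates. Over both segments the Piezo2 class was 2.41-fold higher (4.70 against 1.95 TPM), with a log2 ratio of Gfra3 over Piezo2 neurons of -1.27, and of -0.83 on the values as deposited. In TL the classes had means of 2.54 and 2.36 TPM, and the ratio changed direction when plate 3 was left out and on the values as deposited. Whether the segment ratio differs between classes was not tested.

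Dagla, which is the main diacylglycerol lipase of neurons in brain, had a lower level in LS than in TL, but below 2-fold. It ranged from 0 to 123 TPM in TL with a median of 12.8, and from 0 to 115 TPM in LS with a median of 7.92. The groups overlapped throughout. Means were 17.2 and 11.5 TPM, 1.5-fold lower in LS, with log2 ratios from -1.45 to -0.01 in 5 plates and the value nearest 0 in plate 3. In the Piezo2 class 15 of 65 LS neurons (23.1%, 13.5 to 35.2) and 31 of 55 TL neurons (56.4%, 42.3 to 69.7) reached 10 TPM. In the Gfra3 class the shares were 53.9% (42.1 to 65.5) in LS and 58.5% (47.1 to 69.3) in TL. By mean level LS was 1.72-fold lower in the Piezo2 class, with plate 3 the other way, 1.18-fold lower in the Gfra3 class (4 of 5 plates) and 1.58-fold lower in the 25 neurons with both genes (5 of 5 plates), and the difference between classes was not tested.

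Mean and share of Dagla disagreed in LS neurons. The Piezo2 class there had a median of 4.89 TPM and the Gfra3 class one of 10.3 TPM, whereas the means were 10.8 and 11.9 TPM, because a few Piezo2 neurons were high (up to 115 TPM). Without plate 3, the LS over TL log2 ratio of Dagla within the Piezo2 class went from -0.78 to -1.45, past 2-fold, and on the values as deposited it was -1.04. Neurons with both class genes had the highest Dagla, with a median of 24.9 TPM and 18 of 25 at 10 TPM or more.

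Daglb, whose product is the major lipase of this kind in microglia and macrophages, was nearly even between groups with all plates together. Its median lay between 7.05 and 8.45 TPM in each of the 4 groups of segment and class, and its highest value was 28.8 TPM. The share at 10 TPM was 30.5% and 34.2% in the Gfra3 class (TL and LS) and 25.5% and 29.2% in the Piezo2 class, with intervals that overlapped. The largest ratio of means between segments or classes among these groups was 1.07-fold, for LS over TL in the Gfra3 class. Single plates varied more. The LS over TL log2 ratio ran from -0.20 to 0.75 in the Gfra3 class (SD 0.40) and from -1.34 to 0.30 in the Piezo2 class (SD 0.68). Some of its reads may belong to Rac1, as stated above. Both lipase genes were at 10 TPM in 53 neurons and at least 1 of them in 199 (61.2%, 55.7 to 66.6).

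**Figure D3:**
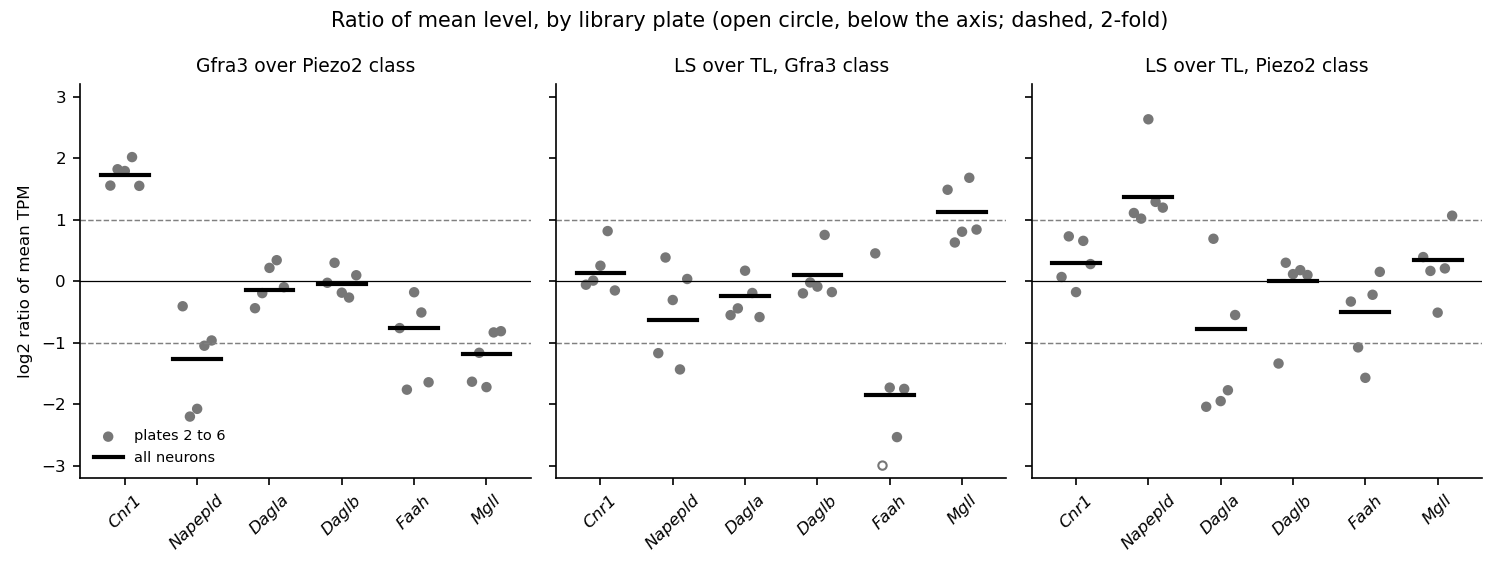
Log2 ratio of mean TPM on the y axis for 6 genes, between classes over all neurons and between segments within each class, with grey points for plates 2 to 6 from left to right, black lines for all neurons and dashed lines at 2-fold. Cnr1 lies above 1.5 in every plate between classes, Mgll above 0.6 in every plate between segments of the Gfra3 class, and Napepld above 1.0 in every plate between segments of the Piezo2 class.

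Of the enzymes of breakdown, Mgll was higher in LS than in TL. It ranged from 0 to 204 TPM in TL with a median of 17.0, and from 0 to 218 TPM in LS with a median of 41.7. The share at 10 TPM was 91.8% (86.3 to 95.5) in LS and 61.7% (53.8 to 69.1) in TL. The means, 47.2 and 33.1 TPM, differed 1.42-fold, less than the medians, and LS was the higher in 5 of 5 plates, with log2 ratios from 0.16 to 1.13.

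In the Gfra3 class the difference in Mgll passed 2-fold. TL neurons of this class ranged from 0 to 58.6 TPM with a median of 11.8, and LS neurons from 0 to 149 TPM with a median of 30.4. The groups overlapped, but the upper quartile of TL neurons, 22.4 TPM, lay close to the lower quartile of LS neurons, 19.5 TPM. Mean levels were 34.3 TPM in LS and 15.7 TPM in TL, or 2.19-fold, with log2 ratios between 0.63 and 1.68 in 5 plates. The shares at 10 TPM were 93.4% (85.3 to 97.8) and 53.7% (42.3 to 64.7), and by plate the LS share was 85.0% to 100% and the TL share 38.9% to 71.4%. Without plate 5 the log2 ratio was 0.90, and on the values as deposited it was 0.75, both under 2-fold. After thinning to 500000 reads, 97.3% of LS and 81.5% of TL neurons of the class had 5 reads of Mgll. Glial markers moved with the segment in this class too (a median sum of 2319 TPM in TL and 163 in LS). The log2 ratio was 1.17 without the tenth of neurons with most glial markers, and rho of Mgll with the glial sum was 0.02 in TL and 0.04 in LS. The part of glial RNA in the difference between segments was not tested.

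Mgll was higher in the Piezo2 than in the Gfra3 class, the opposite order of Cnr1. Its mean was 56.3 TPM against 24.7 TPM in the Gfra3 class, 2.28-fold higher, and the Piezo2 class was the higher in 5 of 5 plates. The log2 ratio of Gfra3 over Piezo2 neurons was -1.19, and -0.69 on the values as deposited, which is under 2-fold. The ratio was 3.12-fold in TL and 1.82-fold in LS, and the difference between these ratios was not tested. In TL the log2 ratio of Gfra3 over Piezo2 neurons went from -1.64 to -0.52 as a difference of mean log2 values. That is under 2-fold, as was the ratio there on the values as deposited. Some reads of Mgll were found in 47 of 55 TL neurons of the Piezo2 class and in 77 of 82 of the Gfra3 class. TL neurons of the Piezo2 class were spread from 0 to 204 TPM with a lower quartile of 1.06 and an upper quartile of 78.7. LS neurons of the class were closer together, with quartiles of 42.1 and 73.0 TPM around a median of 62.3. Accordingly 60.0% (45.9 to 73.0) of TL and 92.3% (83.0 to 97.5) of LS neurons of the class reached 10 TPM, while their means differed only 1.27-fold. As a difference of mean log2 values, LS was the higher by 1.58, which is past 2-fold. In TL neurons of this class Mgll had a rho of 0.42 with the glial sum, and the part of glial RNA in its spread was not tested.

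Faah was low and was at 0 in about as many neurons as not. Some reads were found in 167 of 325 neurons, and the highest level was 42.8 TPM. Its mean was 3.56 TPM in TL and 1.91 TPM in LS, 1.87-fold lower in LS and lower in 5 of 5 plates, with log2 ratios from -1.48 to -0.25. The share at 10 TPM was 15.6% (10.4 to 22.0) in TL and 4.43% (1.80 to 8.92) in LS.

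The classes differed in how often Faah was found. It was above 0 in 52 of 65 LS neurons of the Piezo2 class and in 21 of 76 of the Gfra3 class, with medians of 2.45 TPM and 0. In TL it was above 0 in 34 of 55 and 40 of 82 neurons, with medians of 1.4 TPM and 0. The mean was 3.34-fold higher in the Piezo2 than in the Gfra3 class in LS (3.01 against 0.901 TPM, with log2 ratios of Gfra3 over Piezo2 neurons from -7.70 to -0.33 in 5 plates, SD 2.93) and 1.31-fold in TL (4.25 against 3.25 TPM). Within the Gfra3 class LS was 3.61-fold lower than TL, in 4 of 5 plates, with plate 2 the other way and plate log2 ratios spread from -7.73 to 0.45 (SD 3.04). There the log2 ratio of -1.85 became -1.36 without the tenth of neurons with most glial markers, and -0.66 as a difference of mean log2 values, which is under 2-fold.

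Receptor and enzymes were often found in the same neuron. Of 233 neurons with Cnr1 at 10 TPM, 194 also had Mgll (83.3%, 77.8 to 87.8), 131 Dagla (56.2%, 49.6 to 62.7) and 75 Daglb (32.2%, 26.2 to 38.6). Among the 92 neurons below 10 TPM of Cnr1 the shares were 58.7% (47.9 to 68.9), 30.4% (21.3 to 40.9) and 19.6% (12.03 to 29.1). These pooled shares span groups that differ in the genes. Only 4 LS Gfra3 neurons were below 10 TPM of Cnr1, too few to give a direction (Mgll in 68 of 72 and 3 of 4, Dagla in 40 of 72 and 1 of 4). In the other groups of segment and class, Mgll and Dagla were the more frequent in Cnr1 neurons, but the gap varied. Mgll was in 21 of 24 and 12 of 31 TL Piezo2 neurons, and in 36 of 64 and 8 of 18 TL Gfra3 neurons. Dagla was in 20 of 24 and 11 of 31 TL Piezo2 neurons, and in 11 of 45 and 4 of 20 LS Piezo2 neurons. Of the anandamide arm, Napepld was in 7.73% of Cnr1 neurons and 8.70% of the others, and Faah in 7.73% and 16.3%. By segment, Faah was in 15.0% and 16.7% in TL, and in 2 of 126 and 5 of 32 neurons in LS. For Napepld the classes went opposite ways, with 14 of 69 Cnr1 neurons (20.3%) against 5 of 51 others (9.80%) in the Piezo2 class, and 1 of 136 against 3 of 22 in the Gfra3 class. Trpv1, the capsaicin receptor, which anandamide also activates, was at 10 TPM in 197 of the 233 Cnr1 neurons (84.5%, 79.3 to 88.9) and in 37 of the 92 others (40.2%, 30.1 to 51.0). That contrast spans classes that differ in both genes, since within the Gfra3 class Trpv1 was in 136 of 136 Cnr1 neurons and 20 of 22 others, and within the Piezo2 class in 37 of 69 (53.6%) and 11 of 51 (21.6%). All of these genes share a library and its depth within a neuron, and levels of the members had rank correlations with the number of genes above 0 of between 0.13 and 0.42.

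A 2-arachidonoylglycerol set of Cnr1, at least 1 diacylglycerol lipase gene and Mgll, each at 10 TPM, was found in 130 of 325 neurons (40.0%, 34.6 to 45.6). In the Gfra3 class it was found in 46 of 76 LS neurons (60.5%, 48.6 to 71.6) and in 27 of 82 TL neurons (32.9%, 22.9 to 44.2). In the Piezo2 class it was found in 32.3% of LS and 34.5% of TL neurons, and among neurons with both class genes in 12 of 18 TL and 2 of 7 LS neurons. Taken singly in LS and TL neurons of the Gfra3 class, Mgll reached 10 TPM in 93.4% and 53.7%, and Cnr1 in 94.7% and 78.0%. A lipase gene did so in 64.5% and 72.0%. Whether the set was more frequent than these single shares would give was not tested. Cnr1 at 10 TPM with Mgll below 10 TPM was seen in 33 of 167 TL neurons (19.8%, 14.0 to 26.6) and 6 of 158 LS neurons (3.8%, 1.41 to 8.08). Of those 33 TL neurons, 28 were of the Gfra3 class. The cut lies near the median of Mgll in TL neurons of that class (11.8 TPM, quartiles 5.18 and 22.4). Some Mgll reads were found in 77 of those 82 neurons, so being below the cut does not mean that Mgll was absent. Mgll at 10 TPM with Cnr1 below 10 TPM was found in 17.4% of TL and 15.8% of LS neurons.

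**Figure D4:**
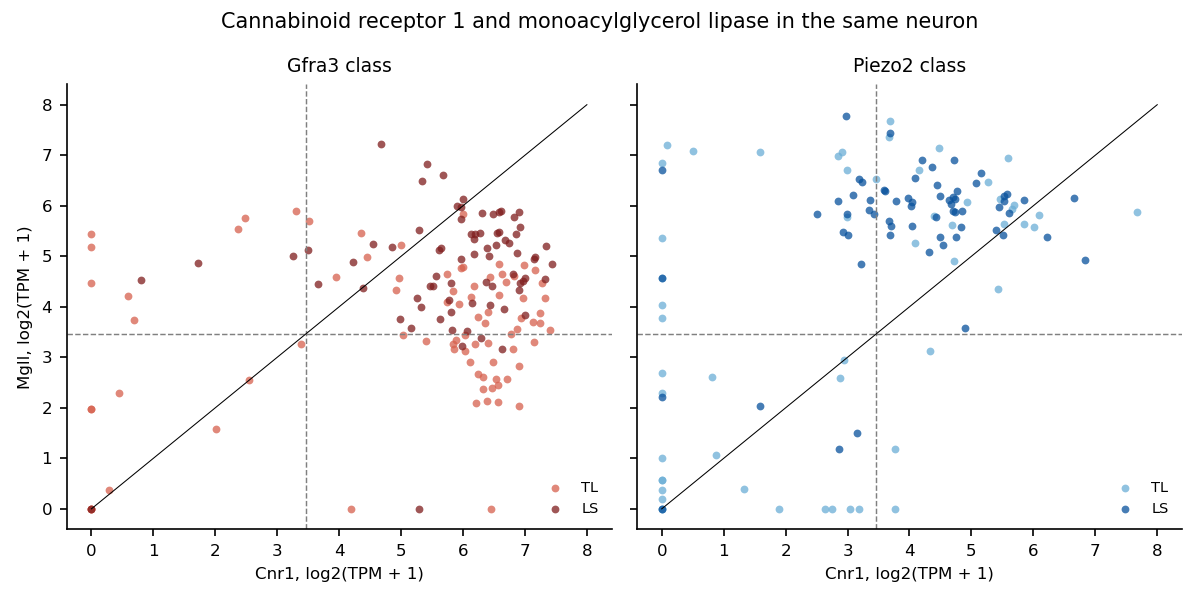
Cnr1 (x axis) against Mgll (y axis) in single neurons of the Gfra3 class on the left and the Piezo2 class on the right, both as log2(TPM + 1), with dashed lines at 10 TPM and a diagonal of equal level. Gfra3 neurons lie mostly below the diagonal (Cnr1 above Mgll in 120 of 158) and Piezo2 neurons mostly above it (Cnr1 above Mgll in 22 of 120), and the points at high Cnr1 and low Mgll are chiefly TL neurons.

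The balance of receptor and hydrolase thus turned over between the classes. Cnr1 exceeded Mgll in 61 of 82 TL and 59 of 76 LS neurons of the Gfra3 class, and in 15 of 55 TL and 7 of 65 LS neurons of the Piezo2 class. Within the 4 groups of segment and class the levels were mostly unrelated, with a rho of Cnr1 with Mgll of 0.02 and 0.13 in the Gfra3 class (TL and LS) and 0.13 in LS neurons of the Piezo2 class. TL neurons of the Piezo2 class were different, with a rho of 0.40 for Cnr1 with Mgll, 0.64 for Cnr1 with Dagla and 0.63 for Dagla with Mgll over 55 neurons. In LS neurons of the class the latter values were 0.06 and -0.21 over 65 neurons. In the TL group these genes also had a rho of 0.35 to 0.42 with the glial sum. No difference between these correlations was tested.

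For the rest of the pathway, a list of 47 further genes was examined, of which 37 averaged at least 1 TPM in a segment and 38 in a class. Between LS and TL, 3 were higher and 2 lower by 2-fold (13.5%, near the background of 13.8%), with a median log2 ratio of -0.03 against 0.05 over all genes. Those in the same direction in each of 5 plates were Plaat3, a phospholipase and acyltransferase (4.30 TPM in LS and 9.26 in TL), Trpa1, the irritant receptor (119 and 303 TPM), Trpv1 (926 and 454 TPM) and Pparg, a nuclear receptor for fatty acid ligands (4.09 and 1.20 TPM). Among the listed genes of breakdown and transport 0 of 8 passed 2-fold, and among the coupling genes 0 of 11.

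Between the classes, 4 of the 38 genes were higher and 6 lower in the Gfra3 class by 2-fold (26.3%, against 18% of all genes). Those past 2-fold in both segments as well included 3 receptors that were higher in the Gfra3 class, Trpv1 (1199.9 against 127 TPM), Trpa1 (407 against 18.2 TPM) and Gpr119, a receptor for oleoylethanolamide (2.50 against 0.578 TPM, in 4 of 5 plates), with Necab1, a calcium-binding protein gene (116 against 52.6 TPM). Higher in the Piezo2 class were the N-acyltransferase gene Plaat1 (5.09 against 0.188 TPM), the glycerophosphodiesterase gene Gdpd3 (6.24 against 2.67 TPM), the fatty acid binding protein gene Fabp3 (197 against 50.6 TPM), the cold receptor Trpm8 (6.08 against 0.937 TPM) and Pparg (4.70 against 1.13 TPM). Plaat1 gave a ratio in 3 plates, all in that direction, and within TL Gdpd3 was the higher in the Piezo2 class in 3 of 5 plates. Plaat1 and Gdpd3 belong, like Napepld, to the synthesis of N-acylethanolamines. The 13 listed synthesis genes of either lipid that averaged at least 1 TPM in a class had a median log2 ratio of -0.05. Of them 0 were higher and 3 lower by 2-fold, so these genes carry no statement on that synthesis as a whole. Trpa1 and Trpv1 are markers of nociceptors in their own right, so that their place in the list is no sign of endocannabinoid function.

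Each gene found in at least 10% of neurons was compared with 10283 genes by Pearson correlation of log2(TPM + 1) across 325 neurons, after the mean of each plate and segment had been subtracted. Cnr1 was most like Amigo2, a neuronal adhesion gene (r = 0.77), the calcium pump gene Atp2b4 (0.76) and the transporter gene Abcc4 (0.76). For Dagla the nearest were Gm45837 (0.61), Frmpd1 (0.60) and Rtn1 (0.58), and for Daglb they were Ndfip1 (0.66), Atp6ap1 (0.65) and Serinc1 (0.65). Mgll was most like Cplx2, which encodes a complexin (0.59), Map7d2 (0.57) and Abcg2 (0.57). Faah had the weakest neighbours, in Iqsec1 (0.46), Lgi3 (0.43) and Pygb (0.42). The neurons share library and depth effects, and these values describe likeness of pattern only.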

How the data were processed

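Per the labels and the paper's methods, the authors sequenced 75 bp read pairs and assigned them to genes of GRCm38.p3 with featureCounts; the submitters' processing notes name bcl2fastq 2.15.0.4, STAR 2.4.1 and featureCounts 1.4.4. The table deposited by the authors holds log2 values with a pseudocount of 1, after their filter for low-quality cells. Values were taken off the log scale (x) and rescaled to 1000000 per neuron (TPM), because the sum of x differed between neurons and fell with depth (rho -0.96 with reads). Whole reads were recovered from x with exonic lengths of GENCODE M21 within a relative tolerance of 1e-06 (65.0% of values), and lengths of 8712 genes were found from the values.

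The classes, the threshold of 10 TPM and the 2-fold rule are those of the report. Members and lists were chosen with earlier results of these data known. The genes named were the 8 members, the class genes, pathway genes past 2-fold in the whole comparison and in each segment or, for LS against TL, in the same direction in plates 2 to 6, and the 3 genes most like each member. C1qb, Rac1 and single glial and macrophage markers were named after their values had been seen. Labels tie no neuron to a mouse, so there was no test. Genes entered the background with a mean of at least 1 TPM in 1 group. Ratio and read recovery were tested on simulated data. Python 3.11.15, numpy 2.4.6, scipy 1.17.1, pandas 2.3.3 and matplotlib 3.10.9 were used. No doublet caller was run, and the alternatives are given with their effect in the closing section.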

Additional observations from a re-analysis of the deposited data

How the results depend on the processing

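The called directions of Cnr1, Mgll and Napepld between classes held in all 19 alternatives, and no called ratio was reversed. Values as deposited, whose sums fall with depth, moved the median log2 ratio of all genes to 0.44 between classes and -0.10 between segments, and the split between classes to 18.4% higher and 7.38% lower, from 8.44% and 9.54%. Members past 2-fold between classes then numbered 1 in place of 3, as they did with means of log2(TPM + 1) or log2(TPM + 10); Faah (0.01), Dagla (0.32) and Daglb changed sign. Between segments the count went from 0 to 1 with values as deposited, with means of log2(TPM + 1) and without plate 6, and to 2 with no filter on the mean. Cnr1 changed sign without plate 5 there. Within classes and segments the alternatives were chosen after seeing the data: the count fell from 2 to 1 for LS over TL in the Gfra3 class (as deposited, means of log2, without plate 5) and for the classes in TL (as deposited, means of log2), and rose from 1 to 2 in the Piezo2 class (as deposited, means of log2, without plate 3). With means of log2 the genes called in the Piezo2 class were Cnr1 (1.19) and Mgll (1.58), and Napepld (0.98) was no longer called. For the classes within LS the count went from 3 to 4 without plate 5, where Mgll passed 2-fold (-1.07). Members that were each found in at least 50% of neurons numbered 2 at 10 TPM, 5 at 1 TPM and 4 by 5 thinned reads. At a threshold of 1 TPM, 95.7% of Cnr1 neurons had Mgll. Of the pathway list, 5 genes between segments became 2 with a mean of at least 10 TPM or means of log2, and 10 between classes became 4 with a mean of at least 10 TPM. The causes were not tested. No paired analysis was possible because no mouse or culture is named per neuron, the replicate numbers only count neurons and each segment is 1 sample; values within each plate stand beside the results. Depth limits Cnr2 and Gpr55, where few reads decide a value.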
